A study of Mus musculus with 6 samples.

Results

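The nuclear genes of the mitochondrial respiratory chain and of the ATP synthase were followed in a lymphoma line of mouse B cells, Wehi-231, of the strain (BALB/c x NZB)F1. They were taken by their annotated symbols, which had to begin with Nduf, Uqcr, Cox4 to Cox8 or Atp5 or to be Sdha, Sdhb, Sdhc or Sdhd. By this rule 87 of the 19057 genes with a named probe were members, and 71 of the 7209 genes that could be tested. A gene counted as measured when a probe lay above the estimated background, a log2 intensity of 6.61, on at least 3 arrays. The 2 groups were cells labelled shTFII-I, with a short hairpin RNA named for the transcription factor TFII-I, and cells labelled shCT, taken here as those with a control hairpin, each with 3 Illumina bead arrays. Both groups were grown in DMEM with 10% FBS, and the labels name no other treatment. Whether the hairpin lines were pools or clones, and whether replicates were separate cultures, the labels do not say. The p-values thus reflect the spread among these 6 arrays alone, and that spread may be technical.

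The respiratory chain passes electrons from NADH (complex I) and succinate (complex II) through complex III to cytochrome c and then, in complex IV, to oxygen. Complexes I, III and IV pump protons across the inner mitochondrial membrane, and the ATP synthase, complex V, lets them flow back and makes ATP. Most subunits are encoded in the nucleus and meet a small number of subunits encoded in mitochondrial DNA, while assembly factors build the complexes without staying in them.

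On each array 12748 of 45281 probes (28.2%) lay above the background level. The deposited columns share 1 distribution, as quantile normalization gives, so they cannot show whether an array was brighter than another. Of the B cell markers with a named probe 6 of 7 passed the filter. Cd79b, a chain of the B cell receptor complex, had a mean log2 intensity of 11.05. Cd74 was at 10.04, Blk at 8.17, Ebf1 at 7.52 and Cd22 at 6.89. Pax5 passed on only 3 arrays, with a mean of 6.61, and Ms4a1, at 6.60, did not pass. The filter was passed by 0 of 5 T cell, 2 of 6 myeloid, 1 of 3 erythroid, 1 of 5 fibroblast and 1 of 4 muscle markers. The myeloid markers that passed, Csf1r and Tyrobp, had means of 6.60 and 6.61. The only named probe of Gtf2i, the gene of TFII-I, was above background on 0 of 6 arrays (difference -0.02 ± 0.06, log2, SE, shTFII-I minus shCT), so it cannot serve to check the knockdown.

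No respiratory chain or ATP synthase gene passed the test of shTFII-I against shCT cells after adjustment over all genes. In limma's test 0 of 71 genes had an adjusted p below 0.05, as did 0 of all 7209 genes (0%; 5 genes outside these 71 with normexp background correction and 6 with a trended, robust prior), and the smallest adjusted p among the 71 was 0.653. Without adjustment 2 genes, Ndufc1 and Cox4i1, had a p below 0.05 in limma, or 2.82% of the 71 against 6.64% of all genes tested. Both were lower in shTFII-I cells (3.55% of all genes were lower at this p), and 0 of the 71 were higher, against 3.09% of all genes. This split was not stable, since with a replicate block 2 were higher and 1 lower. In the mean 32 genes were higher (45.1%, against 50% of all genes) and 39 lower (54.9%, against 50%), and the median log2 difference was -0.01, against 0.0003 over all genes tested. All 3 arrays of one group lay above all 3 of the other in 5 genes, 7.04% of the 71 against 11.9% of all genes. Of these 5 genes 4 were lower in shTFII-I cells, 5.63% of the 71 against 6.38% of all genes. The share at an unadjusted p under 0.05 was above that of all genes without the first shTFII-I array (8.45% against 7.44%), without the second (8.45% against 6.33%) and without a filter (5.75% against 5.31%). The means were at least 1.5-fold apart for 3 genes, Ndufa2, Ndufc1 and Ndufaf4 (4.23%, against 3.66% of all genes). The plot of differences by complex shows how the 95% intervals of nearly all genes span 0.

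**Figure D1:**
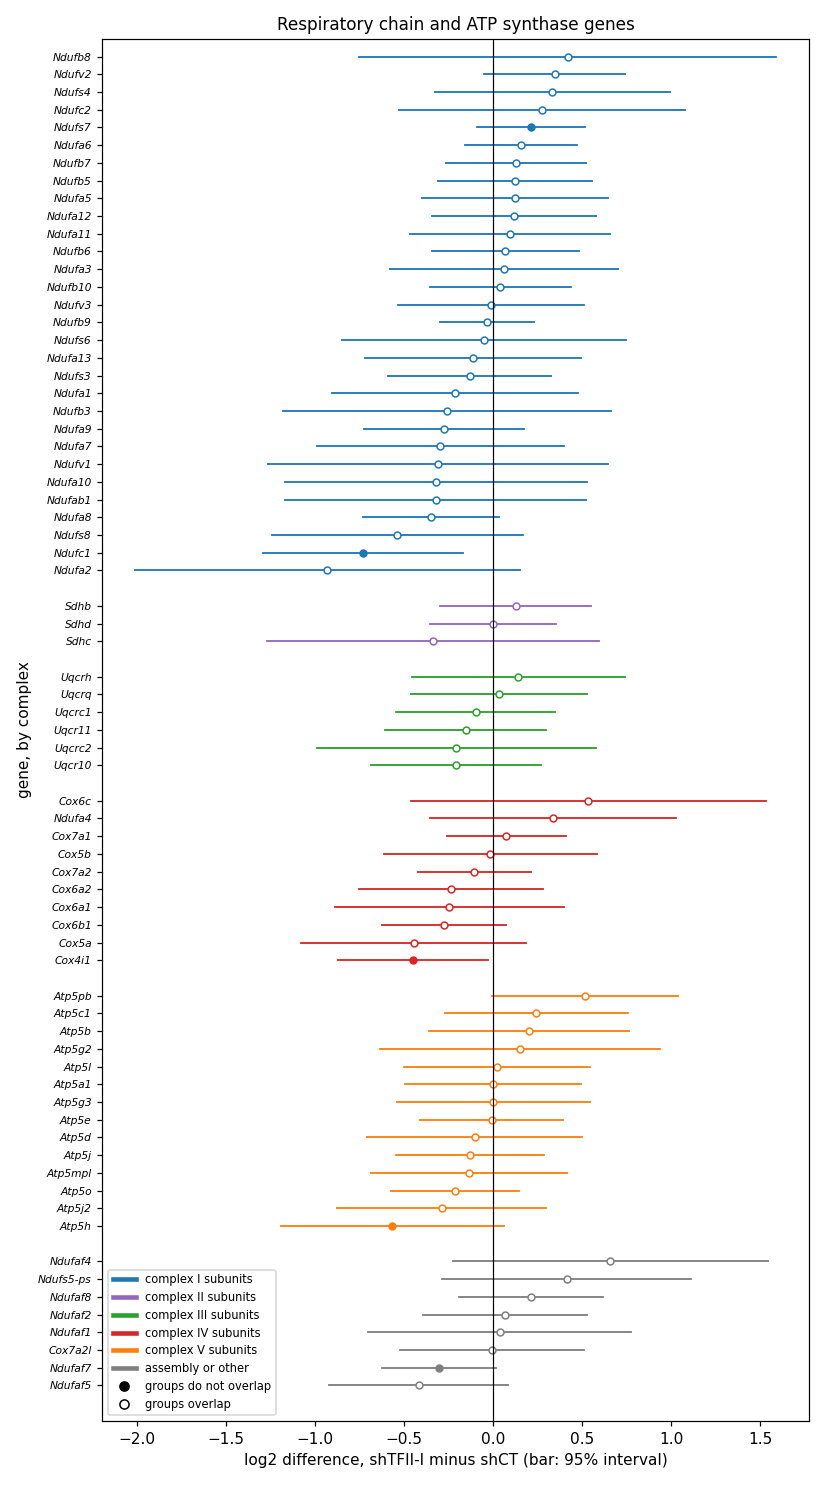
Log2 difference (shTFII-I minus shCT, x axis) of each of the 71 measured genes, grouped by complex down the page, with the 95% interval from limma as a bar (n = 3 arrays a group). Filled points mark the 5 genes whose groups do not overlap, and only the intervals of Ndufc1 and Cox4i1 leave out 0.

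These data bound a change better for some genes than for others. The 95% interval of the difference lay wholly within 1 on the log2 scale, that is within a 2-fold change either way, for 54 of the 71 genes (76.1%, against 88.5% of all genes tested). It lay within 0.5 for 9 genes (12.7%, against 37.3%). The median half-width of the interval was 0.52 for the 71 genes and 0.41 for all genes, and the median residual SD was 0.32 and 0.22. Changes smaller than these intervals could not be detected gene by gene, and larger ones could be missed too. The intervals were not adjusted for the number of genes, while the threshold for a call was. Those of Ndufc1 and Cox4i1 left out 0, yet the adjusted p in limma was 0.653 and 0.732. The values pile up at 6.45 and so still contain background, which understates the differences of dim genes.

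**Figure D2:**
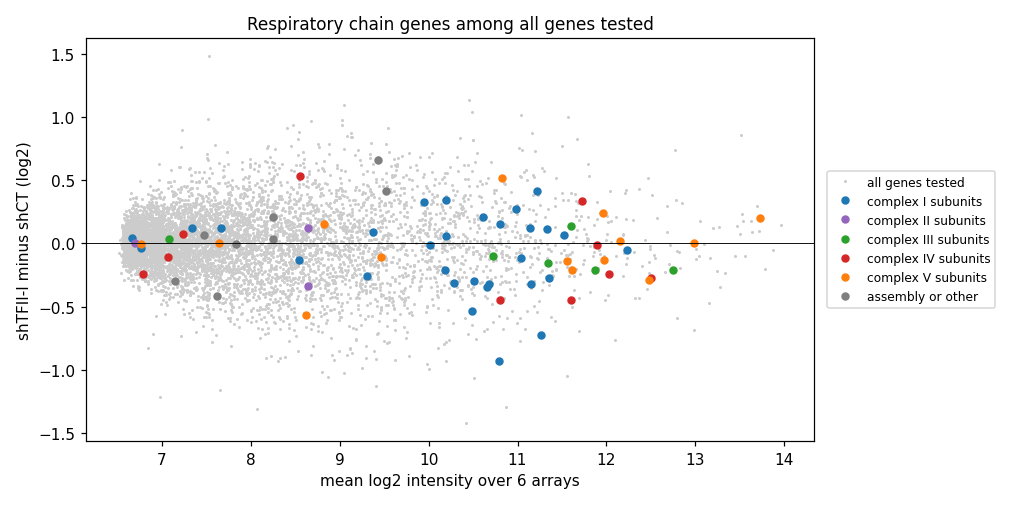
Mean log2 intensity over the 6 arrays (x axis) against the log2 difference, shTFII-I minus shCT (y axis), for all 7209 genes tested (grey) and the 71 respiratory chain and ATP synthase genes (coloured by complex). The coloured points lie within the cloud of all genes, from -0.93 for Ndufa2 to 0.66 for Ndufaf4.

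Complex I, the NADH dehydrogenase, had 30 of 34 subunits with a named probe measured, with array values between 6.40 and 12.79 (log2). Its subunits lay on both sides of 0, with 14 higher and 16 lower in shTFII-I cells, a median difference of -0.02, and 0 past the threshold. Ndufc1, an accessory subunit of the membrane arm, gave the smallest p of all 71 genes. Its log2 intensities were 10.57, 11.44 and 10.69 in shTFII-I arrays, against 11.65, 11.48 and 11.74 in shCT arrays. All shTFII-I arrays lay below all shCT arrays, though the second shTFII-I array came close to the lowest shCT array. The means were 10.90 ± 0.47 and 11.62 ± 0.13 (SD, n = 3 each), a difference of -0.73 ± 0.24 (log2, SE) or 1.66-fold lower, with an adjusted p of 0.653 in limma. A second Ndufc1 probe, also above background on all arrays, read 9.67, 8.75 and 9.32 in shTFII-I arrays, against 9.06, 9.30 and 9.68 in shCT arrays. Its groups overlapped and its difference was -0.10 ± 0.26, so the larger difference rested on 1 of the 2 probes.

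Ndufa2, an accessory subunit of the arm that takes electrons from NADH, had the most negative mean difference of the 71 genes. It read 11.10, 10.66 and 9.22 in shTFII-I arrays, against 11.21, 10.96 and 11.60 in shCT arrays. The third shTFII-I array was far below the others, and the groups overlapped. Its difference was -0.93 ± 0.46 (SE), with a 95% interval from -2.01 to 0.15, and it was -0.38 without the third shTFII-I array. At the other end, Ndufb8, a membrane arm subunit often used as a protein marker of complex I, read 10.86, 11.97 and 11.45 in shTFII-I arrays, against 9.98, 11.12 and 11.93 in shCT arrays. The shCT arrays alone spanned nearly 2 log2 units here, and the difference of 0.42 ± 0.50 was smaller than its error.

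The core subunits of complex I, which hold the flavin and the iron-sulfur clusters or line the quinone site, showed no common direction. Ndufs7, the iron-sulfur subunit next to the quinone site, read 10.69, 10.63 and 10.84 in shTFII-I arrays, against 10.56, 10.59 and 10.38 in shCT arrays. It was the only one of the 71 genes whose shTFII-I arrays all lay above the shCT arrays (1.41%, against 5.49% of all genes). The gap was small, a difference of 0.21 ± 0.13 with an adjusted p of 0.814 in limma. Ndufs8, the other iron-sulfur subunit of the same module, read 10.80, 10.08 and 9.76 in shTFII-I arrays, against 10.86, 10.34 and 11.05 in shCT arrays. Its groups overlapped, with a difference of -0.54 ± 0.30, opposite in sign to that of Ndufs7. Ndufv1, which binds NADH, read 9.50, 10.03 and 10.86 in shTFII-I arrays, against 11.12, 10.17 and 10.04 in shCT arrays. The spread within each group exceeded the difference of -0.31 ± 0.41. Ndufv2, its iron-sulfur partner, read 10.53, 10.44 and 10.13 in shTFII-I arrays, against 9.85, 10.25 and 9.96 in shCT arrays. Only the third shTFII-I array fell within the shCT range, and the difference was 0.34 ± 0.17 (adjusted p = 0.775 in limma). Ndufs3, of the quinone module, read 8.77, 8.48 and 8.17 in shTFII-I arrays, against 8.35, 8.72 and 8.75 in shCT arrays. Its groups overlapped, with a difference of -0.13 ± 0.19. The probe of Ndufs1, which carries iron-sulfur clusters of the input arm, was above background on 0 arrays.

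Grouped by module, the picture was the same. Of 7 measured genes of the electron input module (Ndufv1, Ndufv2, Ndufv3, Ndufs4, Ndufs6, Ndufa2 and Ndufa12) 3 were higher and 4 lower, with a median of -0.01. Of 5 genes of the quinone module (Ndufs3, Ndufs7, Ndufs8, Ndufa5 and Ndufa7) 2 were higher and 3 lower, with a median of -0.13. Of 9 measured Ndufb and Ndufc genes of the membrane arm 6 were higher and 3 lower, with a median of 0.07, and 0 genes of any module passed the threshold. These groups do not name every subunit of their modules. The measured complex I subunits not named in them ran from -0.35 ± 0.16 for Ndufa8 to 0.16 ± 0.13 for Ndufa6, both accessory subunits.

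Assembly factors of complex I that carry the Nduf name were measured in 6 of 8 cases. Ndufaf7, a methyltransferase, read 7.07, 7.13 and 6.80 in shTFII-I arrays, against 7.31, 7.24 and 7.35 in shCT arrays. The groups did not overlap, and the difference was -0.30 ± 0.14 with an adjusted p of 0.746 in limma. Ndufaf4, another assembly factor, read 10.20, 9.64 and 9.43 in shTFII-I arrays, against 9.50, 9.54 and 8.26 in shCT arrays, a difference of 0.66 ± 0.37. The third shCT array was the low one, and a second Ndufaf4 probe differed the other way, by -0.31. Ndufaf5 differed by -0.42 ± 0.21 with overlapping groups, and Ndufaf1, Ndufaf2 and Ndufaf8 by 0.04, 0.06 and 0.21. Ndufs5-ps, annotated as a pseudogene of the subunit gene Ndufs5, differed by 0.41 ± 0.30. Its probe may also detect Ndufs5, which was not tested.

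**Figure D3:**
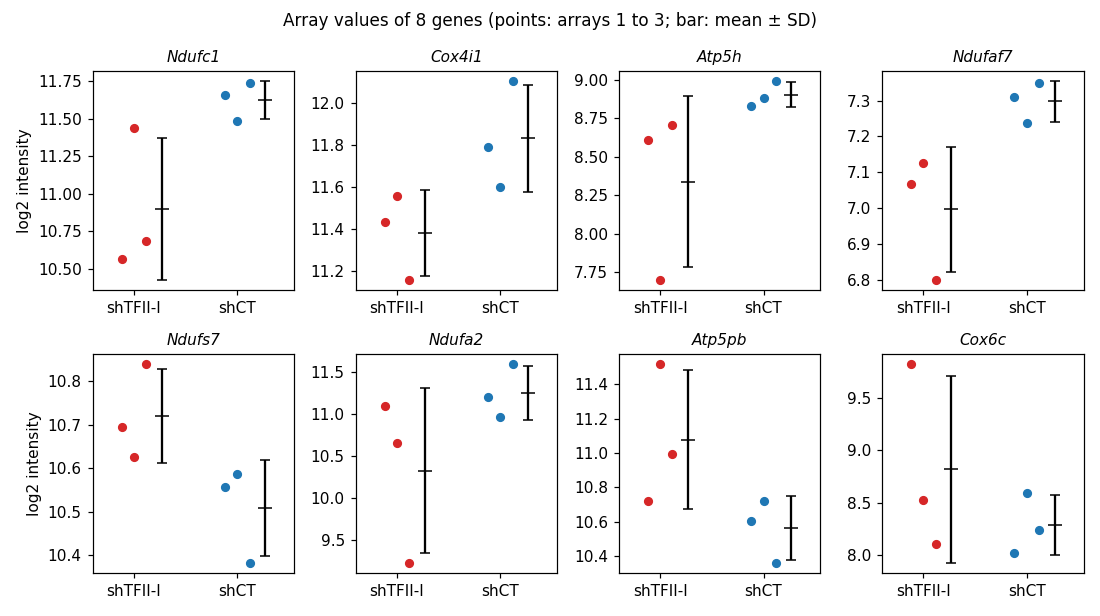
Log2 intensity (y axis, a separate scale in each panel) of 8 genes in the 3 shTFII-I arrays (left, red) and the 3 shCT arrays (right, blue), in replicate order, with the mean ± SD as a bar. Ndufc1, Cox4i1, Atp5h, Ndufaf7 and Ndufs7 have groups that do not overlap, while for Ndufa2, Atp5pb and Cox6c a single array or a pair of arrays of one group reaches into the other.

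Complex II, succinate dehydrogenase, is also an enzyme of the citric acid cycle and is encoded wholly in the nucleus. Of its 4 genes, 3 were measured, and 2 were higher and 1 lower, with a median difference of 0.001. Sdhb, the iron-sulfur subunit, read 8.87, 8.62 and 8.62 in shTFII-I arrays, against 8.70, 8.24 and 8.79 in shCT arrays. The groups overlapped, and 2 probes above background gave 0.13 and 0.05. Sdhc, a membrane anchor, read 8.11, 9.41 and 7.92 in shTFII-I arrays, against 8.95, 8.42 and 9.07 in shCT arrays, and its difference of -0.34 ± 0.40 was smaller than its error. Without 1 array it ran from -0.80 to -0.058. Sdhd, the other anchor, read 6.77, 6.49 and 6.83 in shTFII-I arrays, against 6.54, 6.83 and 6.72 in shCT arrays. It lay close to background (6.70 ± 0.18 in shTFII-I and 6.70 ± 0.15 in shCT arrays, SD, n = 3 each) and was above it on 4 of 6 arrays. The probe of Sdha, the catalytic flavoprotein, was above background on 0 arrays.

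Complex III, the cytochrome bc1 complex, had 6 of 7 subunits with a named probe measured, with 2 higher, 4 lower and a median difference of -0.13. Uqcrc1, a core subunit, read 10.59, 10.41 and 11.01 in shTFII-I arrays, against 10.92, 10.80 and 10.58 in shCT arrays. The groups overlapped, with a difference of -0.10 ± 0.19. Uqcrc2, the other core subunit, read 11.74, 11.07 and 12.51 in shTFII-I arrays, against 11.97, 11.86 and 12.09 in shCT arrays, so the shCT arrays lay within the range of the shTFII-I arrays, and the difference was -0.21 ± 0.33. Uqcr10, a small subunit, read 12.42, 13.06 and 12.46 in shTFII-I arrays, against 12.84, 12.71 and 13.02 in shCT arrays. Its second shTFII-I array was above all others, the difference was -0.21 ± 0.20, and a second probe gave 0.27. Uqcrh, the hinge protein that docks cytochrome c1, read 11.22, 12.12 and 11.68 in shTFII-I arrays, against 11.40, 11.35 and 11.85 in shCT arrays. Here too the groups overlapped, with the highest difference of the complex at 0.14 ± 0.25. The median depended on 1 array, since without the first shCT array it was -0.01. Both probes of Uqcrfs1, the Rieske iron-sulfur protein, were above background on 0 arrays.

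Complex IV, cytochrome c oxidase, had a median difference of -0.17, with 7 of 10 measured subunits lower and 0 past the threshold. This median was -0.02 when the 6 subunits below background were added, -0.078 without the third shTFII-I array and -0.058 without the third shCT array. Cox4i1, the common isoform of the largest nuclear subunit, read 11.43, 11.56 and 11.16 in shTFII-I arrays, against 11.79, 11.60 and 12.10 in shCT arrays. The groups did not overlap, but the second shTFII-I and the second shCT array lay close together. The means were 11.38 ± 0.20 and 11.83 ± 0.25 (SD, n = 3 each), a difference of -0.45 ± 0.18 or 1.37-fold lower, with an adjusted p of 0.732 in limma. Cox4i1 has 1 named probe, so no second probe bears on this difference. Cox5a, next to Cox4i1 in the complex, read 11.10, 10.64 and 10.02 in shTFII-I arrays, against 10.84, 11.15 and 11.11 in shCT arrays, a difference of -0.45 ± 0.27 with overlapping groups. Without the third shTFII-I array it was -0.16. Cox6b1, a subunit on the side that faces cytochrome c, differed by -0.28 on both of its probes, with a limma SE of 0.15 for the brighter one. Cox6a1 differed by -0.25 ± 0.27, and by 0.14 on a second probe. Cox5b, the zinc-binding subunit, read 11.69, 12.34 and 11.63 in shTFII-I arrays, against 11.52, 11.97 and 12.21 in shCT arrays, a difference of -0.02 ± 0.25 with overlapping groups.

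Cox6c, Ndufa4 and Cox7a1 were the 3 complex IV subunits with a higher mean in shTFII-I cells. Cox6c read 9.83, 8.52 and 8.10 in shTFII-I arrays, against 8.02, 8.60 and 8.24 in shCT arrays. Its first shTFII-I array alone stood above the rest, and the difference was 0.53 ± 0.42, or 0.027 without that array. Ndufa4, named for complex I and now known as a complex IV subunit, differed by 0.34 ± 0.29. Cox7a2l, which helps join complexes III and IV into supercomplexes, differed by -0.005 ± 0.22.

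Several complex IV subunits have isoforms of limited tissues, and most of these were below background. The heart and muscle isoform Cox8b and the isoforms Cox4i2, Cox7b2 and Cox8c were above background on 0 arrays, and the testis isoform Cox6b2 on 1. The muscle isoform Cox7a1 was above background on all 6 arrays, at 7.44, 7.27 and 7.10 in shTFII-I arrays, against 7.10, 7.16 and 7.32 in shCT arrays (difference 0.07 ± 0.14). Cox6a2 was above background on 4 arrays, at 6.52, 6.52 and 6.95 in shTFII-I arrays, against 6.71, 6.68 and 7.32 in shCT arrays (difference -0.24 ± 0.22). Of 4 muscle markers with a named probe, Ckm, the muscle creatine kinase, was above background on 6 arrays and the other 3 on 0. Ckm read 7.70, 7.74 and 7.04 in shTFII-I arrays, against 6.90, 6.86 and 6.89 in shCT arrays. All its shTFII-I arrays lay above all shCT arrays, as was so for 5.49% of all genes tested. Summed over the 4 markers, log2 intensities ran from 26.30 to 27.19 in shTFII-I and from 26.18 to 26.40 in shCT arrays. Their part in the isoform readings was not tested, nor was detection of related genes by these probes.

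Complex V, the ATP synthase, had 14 of 16 subunits with a named probe measured, with 6 higher, 8 lower and a median difference of -0.004. Genes of its catalytic head had differences about as large as their errors or smaller. Atp5b, the catalytic beta subunit, read 13.99, 13.59 and 13.89 in shTFII-I arrays, against 13.11, 13.87 and 13.89 in shCT arrays, a difference of 0.20 ± 0.24. Atp5c1, the rotating shaft, read 12.04, 12.08 and 12.13 in shTFII-I arrays, against 11.34, 12.11 and 12.07 in shCT arrays, a difference of 0.24 ± 0.22. In both genes the first shCT array was low, and without it the differences were -0.05 and -0.01. Atp5a1, the alpha subunit, read 7.9995, 7.31 and 7.62 in shTFII-I arrays, against 7.81, 7.74 and 7.38 in shCT arrays. It had equal means of 7.64 (SD 0.34 in shTFII-I and 0.23 in shCT arrays, n = 3 each), with a 95% interval of the difference from -0.49 to 0.49. A second Atp5a1 probe lay near background and was above it on 3 arrays. Its difference was -0.13 ± 0.05, with groups that did not overlap.

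The stalk of the synthase, which holds the head still, gave the widest differences of complex V in both directions. Atp5h, subunit d, read 8.61, 7.70 and 8.71 in shTFII-I arrays, against 8.83, 8.88 and 8.99 in shCT arrays. The groups did not overlap, and the second shTFII-I array was the lowest by far. The difference was -0.56 ± 0.27 or 1.48-fold lower, with an adjusted p of 0.762 in limma, and -0.24 without that array. Atp5pb, subunit b, read 10.72, 11.52 and 10.99 in shTFII-I arrays, against 10.61, 10.72 and 10.36 in shCT arrays, a difference of 0.52 ± 0.22. The first shTFII-I and the second shCT array lay side by side, the difference was 0.30 without the second shTFII-I array, and a second Atp5pb probe above background on all arrays differed by -0.004. Atp5o, the subunit that joins stalk and head, differed by -0.21 ± 0.15, and by 0.41 on a second probe. Of the genes for the c ring, Atp5g3 differed by -0.0001 ± 0.23, and Atp5g2 by 0.15 ± 0.33. These genes encode the same mature protein from different transcripts.

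Where a gene had more than 1 probe above background, the probes often disagreed. This was the case for 22 of the 71 genes, and in 14 of them the probes did not share a sign. The median range of differences between probes of the same gene was 0.20 on the log2 scale. It was largest for Ndufaf4 at 0.97, followed by Ndufa8 at 0.67 (-0.35 against 0.33) and Ndufc1 at 0.63. It was smallest for Cox6b1. For Ndufab1, the mitochondrial acyl carrier protein, 3 probes gave -0.32, -0.29 and -0.36. The tested probe was always the brightest, by a rule that did not use the groups.

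**Figure D4:**
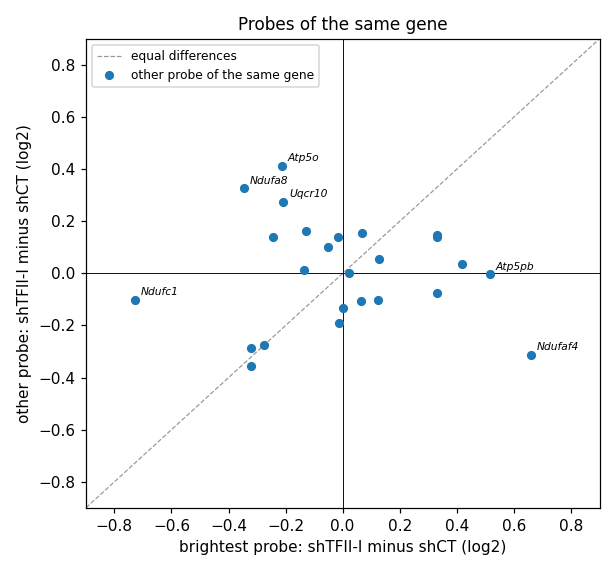
Log2 difference (shTFII-I minus shCT) of the brightest probe of a gene (x axis) against that of each other probe above background (y axis), for 22 genes, with a dashed line where both are equal. Ndufa8, Atp5o and Uqcr10 lie on the upper left and Ndufaf4 on the lower right, where the probes have opposite signs.

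The shift of each array over the whole set was small. As the median over the 71 genes of an array's value minus the gene's mean over all arrays, it was -0.05, -0.05 and 0.07 in the shTFII-I arrays, against 0.06, 0.03 and 0.11 in the shCT arrays. The third shTFII-I array lay among the shCT arrays. Over all genes tested the same measure ran from -0.01 to 0.01. For the subunits of complex IV the arrays were at -0.08, -0.04 and -0.26 in shTFII-I, against -0.02, 0.02 and 0.31 in shCT cells. These did not overlap, but the first and second arrays of both groups lay close to 0, and the third arrays stood farthest out. In complexes I, II, III and V the groups overlapped.

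**Figure D5:**
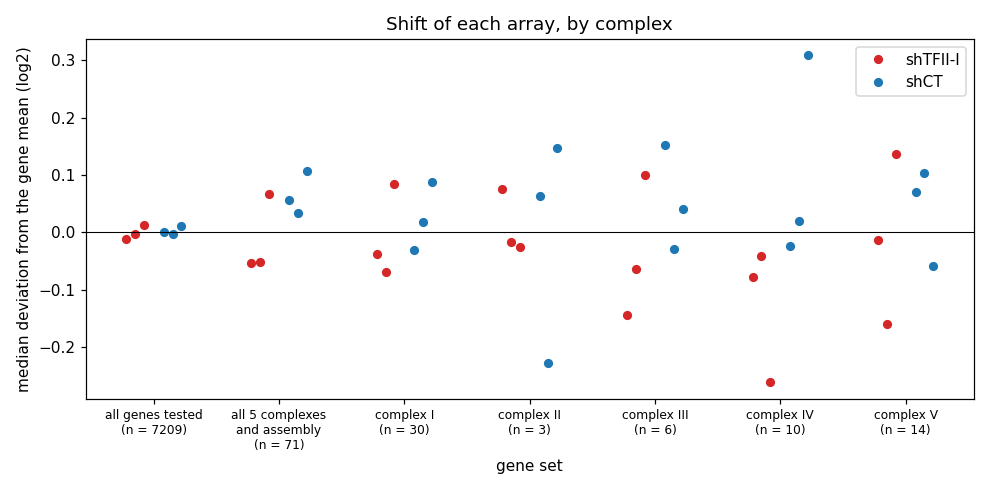
Median deviation of each array from the gene mean (y axis, log2) over all genes tested, over the 71 genes, and over the subunits of complexes I to V (x axis), with shTFII-I arrays (red) left of shCT arrays (blue) in replicate order. In complex IV the third arrays lie at -0.26 (shTFII-I) and 0.31 (shCT), and in the other complexes the groups overlap.

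Of the 16 genes below the filter, Cox7b, a complex IV subunit, came closest, with a mean of 6.61 and 2 arrays above background, followed by Atp5k at 6.57 and Ndufb2 at 6.55. The measured genes nearest the filter were Ndufb10 at 6.66, Sdhd at 6.70 and Ndufb9 at 6.76. The others below it were Atp5md, Cox4i2, Cox6b2, Cox7b2, Cox8b, Cox8c, Ndufaf3, Ndufaf6, Ndufb11, Ndufb4, Ndufs1, Sdha and Uqcrfs1. Since Sdha, Uqcrfs1 and Ndufs1 are constant parts of their complexes, a probe below background gives only a bound for the probe.

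Promoter sequences from RefSeq (GRCm38.p6, from 250 bases before to 50 after the annotated start) were matched by symbol for 72 of the 87 genes, 60 of them measured. They are shown because many respiratory genes are known targets of the factors NRF1, GABP (an ETS factor) and YY1, and because CTCF and TFII-I, the factors of the study, bind promoters. The NRF1 motif (GCGC, any base, TGCGC), on either strand like all motifs here, was in 25% of the 60 measured genes with a promoter, against 5.19% of all 27025 genes with a promoter and 13.6% of the 5948 that could be tested here. The ETS motif CCGGAAG was in 26.7%, against 9.93% of all and 24% of tested genes. The YY1 motif AAGATGG was in 18.3%, against 7.28% and 9.77%. These letters also fit a start codon and its context. The E-box CACGTG was in 8.33%, against 8.09% and 12.8%, and the SP1 motif GGGGCGGGG in 18.3%, against 12.9% and 26.3%. Each motif was counted on its own, so motifs may overlap. A gene with several annotated starts was counted when any of them had the motif. The shares thus also depend on the number of starts a gene has. A CTCF core (CCA, any 2 bases, AG, any 2 bases, GGC) was in 5 of the 60 genes (8.33%), against 2.82% and 3.6%. Matches are descriptions of these letters, not sites of binding.

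The 5 CTCF core matches are shown with 12 bases on each side and the match in capitals, each read along the strand of its gene, because CTCF is the partner factor named in the study.
Ndufa6: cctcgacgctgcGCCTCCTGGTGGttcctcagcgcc
Ndufaf4: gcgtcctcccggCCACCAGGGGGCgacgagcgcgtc
Ndufb6: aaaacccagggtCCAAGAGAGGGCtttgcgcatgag
Ndufv1: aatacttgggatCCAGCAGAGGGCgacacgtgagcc
Uqcrc1: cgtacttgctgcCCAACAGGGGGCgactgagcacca
They lie at chr15:82354418-82354453 (minus strand, Ndufa6), chr4:24898015-24898050 (plus strand, Ndufaf4), chr4:40279490-40279525 (minus strand, Ndufb6), chr19:4012915-4012950 (minus strand, Ndufv1), chr9:108936604-108936639 (plus strand, Uqcrc1) in GRCm38.p6. The first base of the match, counted from the annotated start, is at -150 (Ndufa6), -56 (Ndufaf4), -92 (Ndufb6), -183 (Ndufv1), -32 (Uqcrc1). The 5 genes had differences of 0.16 (Ndufa6), 0.66 (Ndufaf4), 0.07 (Ndufb6), -0.31 (Ndufv1) and -0.10 (Uqcrc1), with a median of 0.07, against -0.01 for the measured genes without a match.

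Of the 5 genes whose groups did not overlap, 4 had a promoter in the table, and those of Ndufc1 and Atp5h, the genes with the widest gaps in the mean, are shown with motifs in capitals. The promoter of Ndufc1 (chr3:51408906-51409205, minus strand) holds the YY1 motif, and that of Atp5h (chr11:115419870-115420169, minus strand) an NRF1 and an ETS motif.
Ndufc1: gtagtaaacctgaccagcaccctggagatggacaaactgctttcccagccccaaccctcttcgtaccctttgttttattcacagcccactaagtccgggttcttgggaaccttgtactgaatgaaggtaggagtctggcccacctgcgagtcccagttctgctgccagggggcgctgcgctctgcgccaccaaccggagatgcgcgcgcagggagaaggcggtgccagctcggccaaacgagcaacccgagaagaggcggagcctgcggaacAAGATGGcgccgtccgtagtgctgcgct
Atp5h: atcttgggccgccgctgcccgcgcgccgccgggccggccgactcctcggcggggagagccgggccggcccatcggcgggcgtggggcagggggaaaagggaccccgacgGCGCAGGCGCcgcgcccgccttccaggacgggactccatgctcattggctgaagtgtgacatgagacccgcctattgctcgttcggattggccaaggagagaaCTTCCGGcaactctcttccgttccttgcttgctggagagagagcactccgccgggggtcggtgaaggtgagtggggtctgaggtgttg
The promoter of Ndufs7 holds the YY1 motif, and that of Ndufaf7 none of the 6 motifs searched. Measured genes with and without the NRF1 motif had median differences of -0.0001 and -0.01, and those with it ran from -0.56 to 0.66.

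Genes that serve the same pathway but lie outside the symbol rule likewise had 0 past the threshold in each list. Assembly factors of complex IV were higher in 8 and lower in 13 of 21 measured genes (median -0.02), with Surf1, which acts early in its assembly, at 0.44 ± 0.20. Those of complex I were higher in 6 and lower in 5, with Ecsit at -0.41 ± 0.16 and an adjusted p of 0.732 in limma. In complex III assembly 3 of 4 were lower, and Uqcc2, needed for the cytochrome b subunit, was at -0.83 ± 0.25 with groups that did not overlap (adjusted p = 0.63 in limma). All but 1 of 4 complex II factors were higher (median 0.26), with Sdhaf1 at 0.29 ± 0.16 and overlapping groups. The lower one, Sdhaf2, was at -0.22 ± 0.12, and its groups did not overlap. Genes listed with the ATP synthase were higher in 4 of 6, with Dmac2l at 0.49 ± 0.15 and an adjusted p of 0.645 in limma. Not all genes of this list are assembly factors of the synthase.

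Electron carriers and entry enzymes were lower in 9 of 13 measured genes (median -0.08, or 0.01 without the third shTFII-I array), with Dhodh, which feeds electrons from pyrimidine synthesis into the chain, at -0.62 ± 0.27. Of 6 measured genes of mitochondrial DNA 4 were higher, with a median of 0.21 that ran from -0.067 to 0.58 with 1 array left out (-0.067 without the first shTFII-I array), and the median half-width of their 95% intervals was 0.95. The widest of these differences was that of ND4, a complex I subunit, at 0.52 ± 0.43. Regulators of mitochondrial genes were split 8 higher to 10 lower, with Hif1a at 0.32 ± 0.13, Polrmt, the mitochondrial RNA polymerase, at -0.58 ± 0.38 and Pprc1 at -0.37 ± 0.26. Genes of the citric acid cycle and of pyruvate dehydrogenase, which feeds it, were split 7 to 7. Citrate synthase, Cs, was at 0.51 ± 0.19 and Pdhb, of pyruvate dehydrogenase, at -0.48 ± 0.18. Genes of exchange across the mitochondrial membranes were higher in 6 and lower in 5. Vdac3 was at -0.43 ± 0.16 and Letm1 at 0.36 ± 0.16, each with groups that did not overlap. The Vdac channels of this list belong to the outer membrane. Glycolysis genes were higher in 10 of 12 (median 0.18), with Ldha at 0.42 ± 0.32.

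Among 72 measured genes of mitochondrial ribosomal proteins 12 had an unadjusted p under 0.05 in limma, 3 higher and 9 lower, with a median difference of -0.06 and 0 past the adjusted threshold. The corresponding count was 2 of 71 among the respiratory chain and ATP synthase genes, and 2 of 54 among cytosolic ribosomal proteins (median -0.01), against 6.64% of all genes. The difference between these counts was not tested.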

How the data were processed

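Biotinylated cRNA of 6 Wehi-231 samples was, per the labels' protocols, made for Illumina arrays. The deposited value table holds log2 intensities of 45281 probes, as the authors processed them. Its columns share 1 distribution, with sorted values at most 0.00118 apart, as quantile normalization gives. The submitters' processing notes name limma without a version, and no source used here gives the background correction. Another table, with 12 per-sample columns that match no sample's labels, was left out.

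Background was centred on the mode of all values, 6.45. Values below it were mirrored, and the level exceeded by 1% of the mirrored background, 6.61, was the limit. The 12126 probes above it in at least 3 arrays were kept. Gene names are those of GEO's platform annotation, updated by Entrez ID through the GRCm38.p6 table (34807 of 34885 probes with 1 symbol matched, while 18 had several symbols and 10378 none). The update changed 0 of the symbols described. The brightest probe stood for a gene.

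Groups were compared with limma 3.58.1 in R 4.3.3 (constant prior variance), with Benjamini-Hochberg adjustment over 7209 genes and a threshold of 0.05. The code was tested on simulated data. Differences of second probes have their SE from a fit over all probes. No permutation p is given, because the smallest exact value for groups of 3 is 0.1. The number of arrays limits the precision, and levels of different probes were not compared. Genes, lists, modules and motifs were chosen with earlier results of these data known. Array values are given for genes at an unadjusted p under 0.05, genes without overlap and at least 0.3 apart, the extremes of each complex and core subunits. Of related lists up to 3 genes of smallest p are named, and other genes given with array values were chosen after their values were seen. Alternatives covered the background correction, filter, probe choice, prior, array weights, a replicate block and each array left out. No pairing of the arrays by replicate number was shown.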

Additional observations from a re-analysis of the deposited data

How the results depend on the processing

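In each of the 17 alternatives run 0 of the respiratory chain and ATP synthase genes passed an adjusted p of 0.05, with a smallest adjusted p in limma from 0.538 to 0.977, while among all genes 5 passed with normexp and 6 with a trended, robust prior. The platform's own symbols left these genes as in the main run, and the subunits alone were a part of its results. Those alternatives thus add no separate test. The count at an unadjusted p under 0.05, which was 2, became 5 without a filter (5.75%, against 5.31% of all genes), 1 with array weights (1.41%, against 6.66%) and 1 to 6 with 1 array left out (1.41% to 8.45%, against 4.87% to 7.49%). It held 0 to 2 higher and 1 to 5 lower genes with 1 array left out. Groups did not overlap for 6 to 16 genes with 1 array left out, in place of 5, while 19.1% to 24.2% of all genes then did not overlap. With the replicate block 0 genes passed and 3 had an unadjusted p under 0.05 (4.23%, against 7.06% of all genes), 2 of them higher and 1 lower. The deviations of arrays that share a number correlated at -0.01, 0.003 and 0.10, so the block rests on no shown pairing.

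With 1 array left out, medians ran from -0.17 to -0.01 for complex III (-0.01 without the first shCT array) and from -0.21 to -0.06 for complex IV. Complex III had the lower median of these complexes without a filter (-0.099 against -0.022), above background in all 6 arrays and at a looser level (-0.13 against -0.10 in both), with array weights (-0.16 against -0.11), without the third shTFII-I array (-0.17 against -0.078) and without the third shCT array (-0.15 against -0.058). List medians ran from -0.067 to 0.58 for genes of mitochondrial DNA, -0.19 to 0.010 for electron carriers and -0.052 to 0.16 for membrane exchange. They ran from 0.014 to 0.28 for the ATP synthase list, -0.12 to 0.11 for complex I assembly and 0.11 to 0.27 for complex II assembly. The range was -0.14 to -0.012 for complex III assembly and -0.088 to 0.081 for regulators. It was -0.061 to 0.10 for the citric acid cycle with pyruvate dehydrogenase and 0.077 to 0.20 for glycolysis. Differences of single genes were followed only for the genes chosen by the rule for array values. They were not followed with every probe on its own, the trended, robust prior, the platform's own symbols or the subunits alone. Over the other alternatives, 299 of these differences kept their sign and 25 changed it, none of them past the threshold. Many of the 299 could not change, so their number does not measure stability. A change of filter mostly kept the same probe, as did the mean for genes with 1 probe. The replicate block left the differences in the mean as they were. The signs that changed with normexp were those of Atp5a1 (-0.0088) and Sdhd (-0.0083). With the mean of the probes they were those of Atp5a1 (-0.066), Cox5b (0.062) and Uqcr10 (0.032), and with array weights that of Sdhd (-0.030). With 1 array left out the differences ran from -0.18 to 0.17 for Atp5a1, -0.055 to 0.33 for Atp5b, -0.0075 to 0.38 for Atp5c1, -0.24 to 0.14 for Cox5b, -0.10 to 0.88 for Ndufb8, -0.28 to 0.019 for Ndufs3, -0.67 to 0.030 for Ndufv1, -0.042 to 0.23 for Sdhb, -0.078 to 0.11 for Sdhd, -0.27 to 0.031 for Uqcrc1, -0.57 to 0.14 for Uqcrc2 and -0.085 to 0.37 for Uqcrh. Without a change of sign they ran from -0.70 to -0.16 for Cox5a, -0.80 to -0.058 for Sdhc, -0.83 to -0.31 for Ndufs8 and 0.30 to 0.69 for Atp5pb, and the mean of the probes gave -0.41 for Ndufc1. The cause of these changes was not tested.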
